A study of Homo sapiens with 4 samples.

Results

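The HOX genes were taken as the protein-coding genes of the GENCODE annotation (release 44, GRCh38) whose symbol is HOXA, HOXB, HOXC or HOXD followed by a number. This gave 39 of 19970 protein-coding genes, with 11 in HOXA, 10 in HOXB, 9 in HOXC and 9 in HOXD. Open chromatin near them was read from 4 lists of ATAC-seq peaks, the intervals where a transposase cuts and tags DNA more often than the local background. The cells were HK1, a long-established line from a human nasopharyngeal carcinoma. They were either wild type (WT) or carried a knockout of the ETS-family transcription factor gene FLI1 made with a guide RNA (sgFLI1). Each genotype was untreated (WT, sgFLI1) or exposed to the cytokine interferon-γ, for a day according to the study's methods (WT-IFN-γ, sgFLI1-IFN-γ). Whether the knockout cells were 1 clone or a pool is not given in the sources used here. Each of the 4 groups held 1 library, so no difference between groups could be set against replicate error, no test was run, and all intervals are 95% counting intervals within a library.

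HOX genes encode homeodomain transcription factors that set position along the body axis. They lie in tandem in 4 clusters, and genes at the same place in different clusters are paralogues that carry the same number. Low numbers stand at the 3′ end of a cluster and are used early and towards the head, high numbers at the 5′ end and towards the tail, an order called collinearity. Silent HOX chromatin is held by Polycomb complexes, active HOX chromatin by Trithorax-type MLL complexes, and CTCF sites mark boundaries between the domains. Epithelial cell lines keep part of the HOX code of the tissue they came from, and carcinomas often open further members.

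The lists held between 59629 and 67470 peaks. The pileup at each summit, which is the number of tags lying over it, was recovered from the fold and −log10 p of each peak. Where 4 values follow each other without names, they stand for WT, WT-IFN-γ, sgFLI1 and then sgFLI1-IFN-γ. The median pileup ran from 26 tags in sgFLI1-IFN-γ to 31 tags in WT. Background tag density was 8.04, 8.84, 6.93 and 6.86 tags per kb, so the knockout libraries were the shallower ones, and pileups divided by it are called scaled pileups. At FLI1 itself, a peak lay within 1 kb of a start in WT (12 tags at the highest) and in WT-IFN-γ (22 tags), and none was listed in either knockout library, which does not show whether the gene was disrupted. Of 7 epithelial marker genes, EPCAM, KRT8 and KRT18 had promoter peaks in all 4 lists and CDH1 in all but WT (25 tags in WT-IFN-γ, 18 in sgFLI1, 14 in sgFLI1-IFN-γ). TP63, KRT5 and KRT14, which mark stratified and basal epithelium, had none. Of the blood markers PTPRC, CD3E and SPI1 had none and CD14 had peaks of 14 to 32 tags in all lists. Of 5 fibroblast and endothelial markers VWF had none, COL1A1 (132 to 172 tags), COL1A2 (13 to 17 tags) and PDGFRB (12 to 25 tags) were listed throughout, and PECAM1 was listed in the knockout libraries only, with 32 and 31 tags.

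Overlapping peaks of the 4 lists were joined into 93211 regions, and 49 of them had a summit within 10 kb of a HOX transcription start site (TSS). The bases around a summit are shown for the strongest HOXD region in WT and for the 3 summits that were listed in both libraries of 1 genotype and in neither of the other, read from the plus strand of GRCh38 with every CpG in capitals. They are shown because CpG-rich letters recur in the open HOX regions and because the last 3 differ between the WT and knockout lists.
HOXD11 promoter, chr2:176106942-176107142: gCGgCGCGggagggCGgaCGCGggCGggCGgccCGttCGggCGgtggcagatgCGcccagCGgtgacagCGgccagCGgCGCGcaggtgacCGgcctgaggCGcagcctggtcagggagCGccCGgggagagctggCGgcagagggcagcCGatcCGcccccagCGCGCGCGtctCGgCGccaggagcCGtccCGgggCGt
Beyond HOXC11, chr12:53978980-53979180: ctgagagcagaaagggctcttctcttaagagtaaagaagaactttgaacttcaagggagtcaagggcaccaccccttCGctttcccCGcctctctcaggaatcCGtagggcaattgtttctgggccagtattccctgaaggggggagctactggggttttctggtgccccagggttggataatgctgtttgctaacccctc
HOXD3 intron, chr2:176140597-176140797: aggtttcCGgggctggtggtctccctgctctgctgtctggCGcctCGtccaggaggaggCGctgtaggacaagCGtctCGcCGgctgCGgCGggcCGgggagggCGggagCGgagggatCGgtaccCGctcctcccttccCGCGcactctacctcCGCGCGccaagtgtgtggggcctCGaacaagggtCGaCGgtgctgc
HOXA3 intron, chr7:27111039-27111239: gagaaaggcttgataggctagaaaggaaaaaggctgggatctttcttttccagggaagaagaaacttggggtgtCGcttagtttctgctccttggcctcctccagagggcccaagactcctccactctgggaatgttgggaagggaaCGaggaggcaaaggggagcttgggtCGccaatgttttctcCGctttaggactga
Each stretch holds 201 bases, with 33 CpG at HOXD11, 3 beyond HOXC11, 22 in the HOXD3 intron and 4 in the HOXA3 intron.

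Open regions ran along the length of HOXA, over the 5′ and central parts of HOXC and HOXD, and over the central part of HOXB. Peaks near HOX genes numbered 43 without and 47 with IFN-γ in WT cells and 44 and 43 in knockout cells, and covered between 38.1 kb (sgFLI1-IFN-γ) and 41.2 kb (WT). Their median scaled pileup was 6.84, 5.21, 6.35 and 6.41, against 3.85, 3.39, 3.90 and 3.79 over all peaks of the same lists. The background that the peak caller set locally was also higher there, at a median of 3.77 to 4.30 times the library's own, against 1.79 to 1.96 times for all peaks. By −log10 q the HOX peaks stood at a median rank between percentile 57.2 (WT-IFN-γ) and 66.2 (WT) of their list, which allows for that background.

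**Figure D1:**
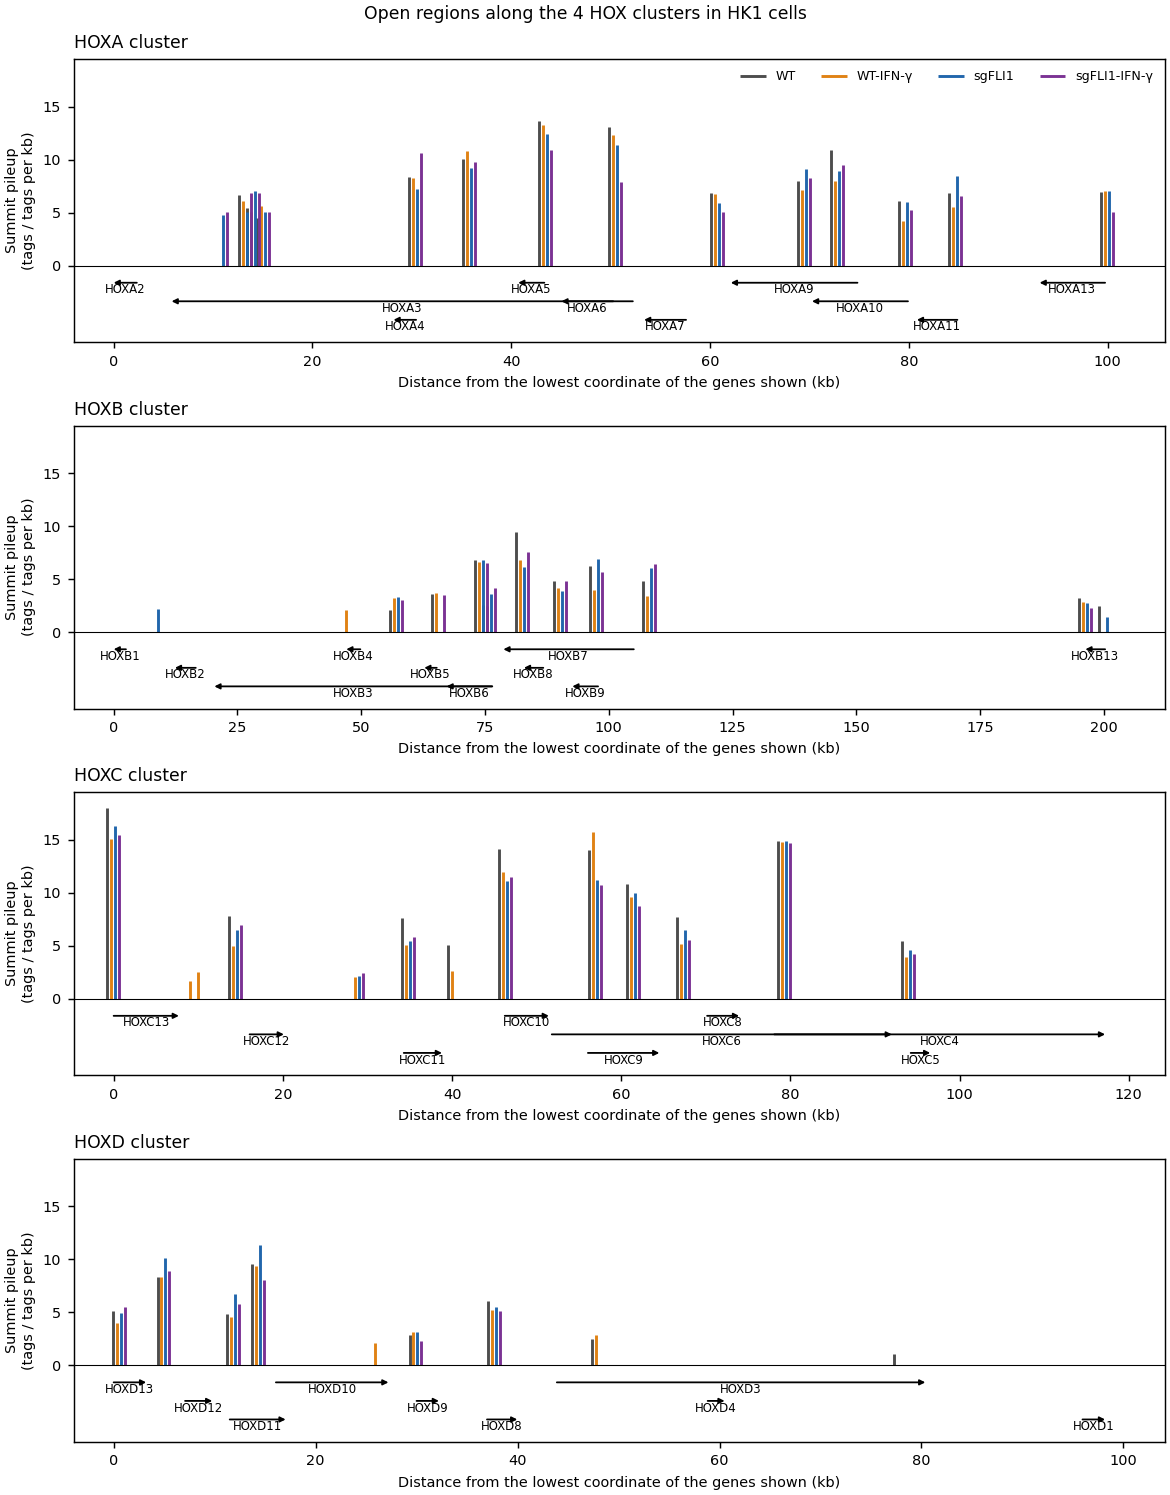
Scaled summit pileup (tags divided by tags per kb) of the open regions shown against distance in kb along the HOXA, HOXB, HOXC and HOXD clusters, with 1 line for each library and arrows for the genes shown in their direction of transcription. HOXA carries lines along most of the stretch drawn, while HOXB1 to HOXB4 and HOXD3 to HOXD1 carry few or none. Only regions with a summit within 10 kb of a HOX start are drawn, so most of the stretch from HOXB9 to HOXB13 could carry no line.

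HOXA, which spans 107 kb of chromosome 7, was the cluster that changed least between lists. It held 14, 15, 15 and 16 peaks, and 14 of its 15 regions were listed in all 4 libraries. HOXA5, a central gene of lung development, had 110 tags (90.4 to 133) untreated and 117 (96.8 to 140) treated in WT cells, and 86 untreated and 75 treated in knockout cells. On the scaled pileup these were 13.7, 13.2, 12.4 and 10.9, and the counting intervals of the ratios between them included no change in all 4 comparisons. HOXA6 had 105, 109, 79 and 54 tags. The promoters of the 5′ genes had fewer tags than HOXA5 in every library: HOXA9 had 64, 63, 63 and 57, HOXA10 88, 71, 62 and 65, HOXA11 55, 49, 59 and 45, and HOXA13, the terminal gene of limb and genital development, 56, 62, 49 and 35. Of 2 regions at an inner HOXA3 start, 1 had 54, 54, 35 and 47 tags and the other 44, 45, 49 and 47. HOXA4 had 67, 73, 50 and 73 tags. These lay in the same range, so the cluster's summits did not fall off steadily from either end. No list held a summit within 1 kb of the canonical HOXA3 start. HOXA2 and HOXA7 had no promoter summit in any list, although both had peaks within 10 kb. The longest peak-free stretch, which touched HOXA2 and HOXA3, was 16.1 kb in both WT libraries.

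HOXB spans 200 kb (chr17:48528526-48728750) and was the cluster with the smallest covered share, 3.33% of its span in sgFLI1 to 4.19% in WT-IFN-γ, where HOXA had 12.7% to 13.2%. It held 10, 11, 12 and 10 peaks within 10 kb of a HOX start. Its span held 12, 14, 12 and 12 peaks at any distance from a start. The open part was mainly the middle, HOXB5 to HOXB9. HOXB7, a central gene known for its activity in several carcinomas, had the highest summit of the cluster in all libraries but sgFLI1, with 76 tags (59.9 to 95.1) untreated and 60 (45.8 to 77.2) treated in WT cells, and 43 (31.1 to 57.9) and 52 (38.8 to 68.2) likewise in knockout cells. WT was the highest of the 4 and sgFLI1 the lowest. HOXB9 had 50, 35, 48 and 39 tags and was the highest in sgFLI1, and a shared region beside starts of HOXB6 and HOXB3 had 21, 22, 25 and 29. HOXB1, HOXB2, HOXB4 and HOXB8 had no promoter summit in any list. No peak lay over 56.9 kb of HOXB1 to HOXB4 in WT, over 47.2 kb in WT-IFN-γ and over 56.8 kb in sgFLI1-IFN-γ. In sgFLI1 a single peak of 15 tags interrupted this stretch between HOXB1 and HOXB2, in repeated sequence (the 21 bases centred on its summit occur 53 times in the chromosomes searched). The longest gap was then a 52.4 kb part of the stretch between HOXB9 and HOXB13.

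HOXC spans 117 kb (chr12:53938831-54056030), has no genes of paralogue groups 1 to 3, and held the highest HOX summit of the untreated WT library. This was the promoter of HOXC13, a 5′ gene of hair and nail formation, with 145 tags (122 to 171) untreated and 133 (111 to 158) treated in WT cells, and 113 (93.1 to 136) and 106 (86.8 to 128) likewise in knockout cells. The scaled pileup there was 18.0 in WT and at most 16.3 in the other 3 libraries. HOXC10 had 114, 106, 77 and 79 tags. The region shared by the HOXC9 and HOXC6 starts had 113, 139, 78 and 74 tags and was the highest of the cluster in WT-IFN-γ. HOXC9 and HOXC6 cannot be told apart there because 1 summit lies within 1 kb of both. HOXC5, at the 3′ side, was lower with 44, 35, 32 and 29 tags. HOXC8 and HOXC12 had no promoter summit in any list. The cluster held 10, 13, 11 and 10 peaks, and none over the last 23.1 kb (WT) at its 3′ end.

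HOXD spans 98.2 kb (chr2:176092721-176190907) and was open mainly from HOXD13 to HOXD8. It held 9, 8, 6 and 7 peaks, fewer in the knockout libraries. HOXD11, a 5′ gene of limb and kidney development, had the highest summit of the cluster in all libraries but sgFLI1-IFN-γ, with 77 tags (60.8 to 96.2) untreated and 83 (66.1 to 103) treated in WT cells, and 79 (62.5 to 98.5) and 55 (41.4 to 71.6) likewise in knockout cells, so that sgFLI1-IFN-γ was the lowest. The region 2140 bp upstream of HOXD12 had 67, 74, 70 and 61 tags and was the highest there. HOXD13, the terminal gene of digit formation, had 41, 35, 34 and 38 tags, HOXD8 had 49, 46, 38 and 35, and HOXD9 had 23, 28, 22 and 16. HOXD3, HOXD10 and HOXD12 had peaks within 10 kb and no promoter summit, and HOXD1 and HOXD4 had no peak within 10 kb in any list. The longest peak-free stretch lay over HOXD3 and HOXD4 and measured 29.5 and 37.0 kb in the WT libraries and 47.3 and 47.4 kb in the knockout libraries, where it also reached HOXD8. The 2 regions that broke it up in WT, of 20 and 9 tags, are described below among those missing from some lists. Only the first was also listed in WT-IFN-γ.

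Promoter peaks, with a summit within 1 kb of any annotated TSS, were found for 26 HOX genes untreated (66.7%) and 23 treated (59.0%) in WT cells, and for 24 (61.5%) and 23 (59.0%) in knockout cells. Over all protein-coding genes the shares were 66.3%, 67.2%, 66.5% and 65.8% in the same order, so the HOX share was close to that of all genes in WT and below it in the other 3 libraries. The HOX promoters divided into 22 that were listed in all 4 libraries, 4 in some and 13 in none. By paralogue group, all 4 group 9 genes and all 3 group 6 genes were listed throughout, as were 3 of 4 in group 13, while both group 2 and both group 12 genes were listed nowhere. Of the 8 genes of groups 1 to 3, which include HOXB1 and HOXD1, 3 were listed throughout and 5 nowhere. Of the 16 genes of groups 9 to 13, 11 were listed throughout and 3 nowhere, and the 15 genes of groups 4 to 8 lay between with 8 and 5. With canonical starts alone, 16 genes were listed in all 4 libraries, 3 in some and 20 in none, since genes such as HOXB3 and HOXC6 are counted through outlying starts that lie beside a neighbour. HOXA6, HOXC6 and HOXA9 were then listed in no library, so the full listing of groups 6 and 9 depends on outlying starts.

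**Figure D2:**
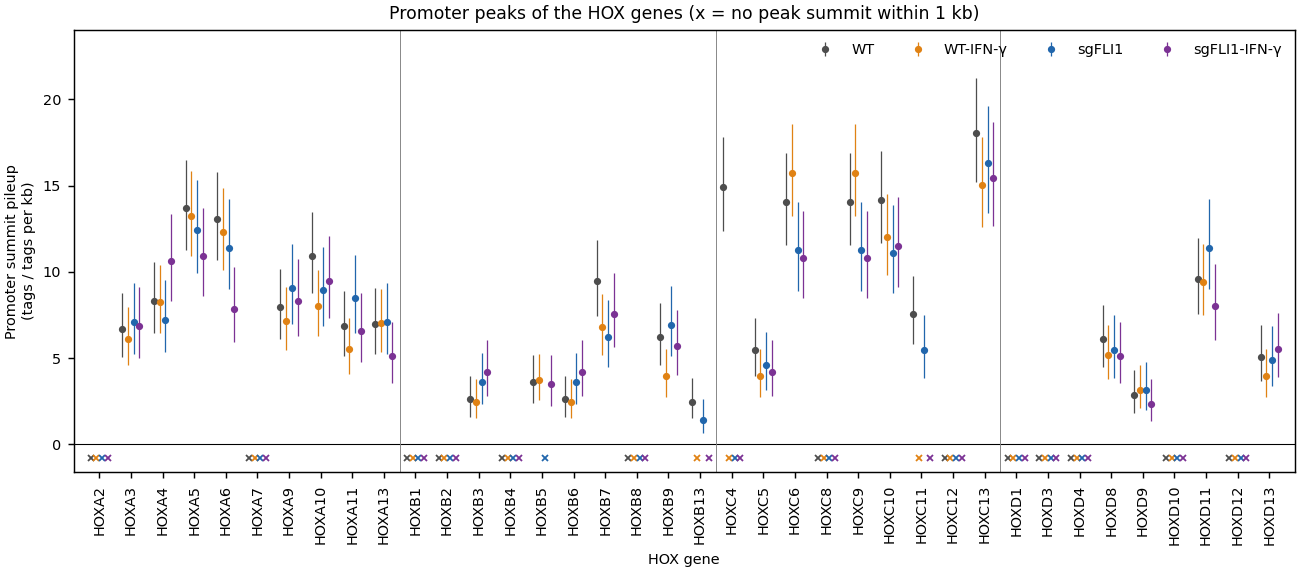
Scaled summit pileup (tags divided by tags per kb) of the strongest peak within 1 kb of a start, for the HOX genes shown and each library, with 95% exact Poisson counting intervals, and crosses below 0 for no such peak. HOXC13, HOXC4 (in WT only), HOXC10, HOXC9 and HOXC6 stand among the highest, and 13 genes carry crosses in all 4 libraries. HOXC4 and HOXC6 are counted through outlying starts.

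Of the 4 promoters that differed between lists, HOXB5 and HOXB13 were missing as peaks and HOXC4 and HOXC11 only moved past the 1 kb limit. HOXB5, a central gene used in lung and gut mesoderm, had 29 tags without and 33 with IFN-γ in WT cells and 24 in sgFLI1-IFN-γ, and was not listed in sgFLI1. Had its strongest level been kept at the depth of sgFLI1, 25.9 tags would have stood there, and 10 would have been enough for the list. HOXB13, the terminal gene of the cluster and a prostate and hindgut factor, had 20 tags in untreated WT and 10 in untreated knockout cells and was listed in neither treated library. At HOXC4 the same region was listed everywhere with 120, 131, 103 and 101 tags, and its summit lay 988 bp from an outlying start in WT and beyond 1 kb in the others. No list held a summit within 1 kb of the canonical HOXC4 start. At HOXC11 the region held 61, 45, 38 and 40 tags in all 4 lists, and its summit was within 1 kb of the start only in WT and sgFLI1. So the fall from 26 to 23 promoters with IFN-γ in WT cells rests on HOXB13 and these 2 shifted summits.

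HOX regions were found in more of the lists than regions in general. Of the 49 HOX regions 37 (75.5%) were listed in all 4 libraries, against 43.9% of all 93211 regions, and the shares were 93.3% in HOXA, 66.7% in HOXB, 69.2% in HOXC and 66.7% in HOXD. More HOX regions also lay within 1 kb of a protein-coding TSS (57.1%, all regions 18.1%), where listing in all 4 libraries was commoner. Within that distance 25 of 28 HOX regions were listed in all 4, against 12872 of 16838 of all regions. Beyond it the counts were 12 of 21 and 28004 of 76373. HOX peaks also ranked higher than the median of their lists, as given above. The part of that rank and of the distance from starts in the share was not tested. The regions that were missing from some list numbered 12, and most were weak, with 9 to 41 tags where listed.

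The HOX regions that separated the genotypes lay beyond HOXC11, in a HOXD3 intron and in a HOXA3 intron. The share of all regions with such a pattern was not counted, so whether it was more or less common near HOX genes is not known. The region 5952 bp past a HOXC11 start, in no annotated gene (chr12:53978792-53979425), had 41 tags untreated and 23 treated in WT cells and was listed in neither knockout library. From its WT level 35.3 and 35.0 tags would be expected there at their depth, where 17 and 16 would have been enough for the list. From the 23 tags of WT-IFN-γ, 17.9 would be expected in sgFLI1-IFN-γ and 14 needed, which is close to the limit of the list. The region in a HOXD3 intron (chr2:176140593-176141038), 3740 bp from a start, had 20 tags untreated and 25 treated in WT cells and was not listed in the knockouts, with 19.6 and 19.4 tags expected and 8 needed in each. In the opposite direction, the region in a HOXA3 intron, which also lies in the antisense gene HOXA-AS2 (chr7:27110753-27111719), had 33 tags untreated and 35 treated in knockout cells and was in neither WT list, where 41.0 and 45.1 tags would be expected and 25 and 26 needed. These 3 regions kept their presence or absence with and without IFN-γ.

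The other 9 were listed in patterns that did not follow genotype alone. A region at the 3′ untranslated end of HOXB4 (chr17:48575755-48576066), with 19 tags, had its summit 299 bp upstream of a HOXB3 start. This region and one in a HOXD10 intron (chr2:176118680-176119104), also with 19 tags, were listed in WT-IFN-γ alone. So were 2 weak regions upstream of HOXC12, with 15 and 22 tags. The region in an intron of HOTAIR (chr12:53967333-53967986), the long noncoding RNA transcribed from between HOXC11 and HOXC12, was missing from WT alone and had 18, 15 and 17 tags in the other 3. A region of 9 tags within HOXD3 was listed in WT alone, and the summit between HOXB1 and HOXB2 (15 tags) in sgFLI1 alone. HOXB5 and HOXB13 make up the rest. If kept at their strongest level, all 12 had enough expected tags at the depths of the libraries that lacked them, with these exceptions. They were 1 of the HOXC12 regions in all 3 others and the 9-tag HOXD3 region in both knockouts. The expected tags carry no counting error, and some lay close to the limit. In WT-IFN-γ the 9-tag HOXD3 region had 9.89 expected and 9 needed. In sgFLI1-IFN-γ the 22-tag HOXC12 region had 17.1 expected and 15 needed.

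**Figure D3:**
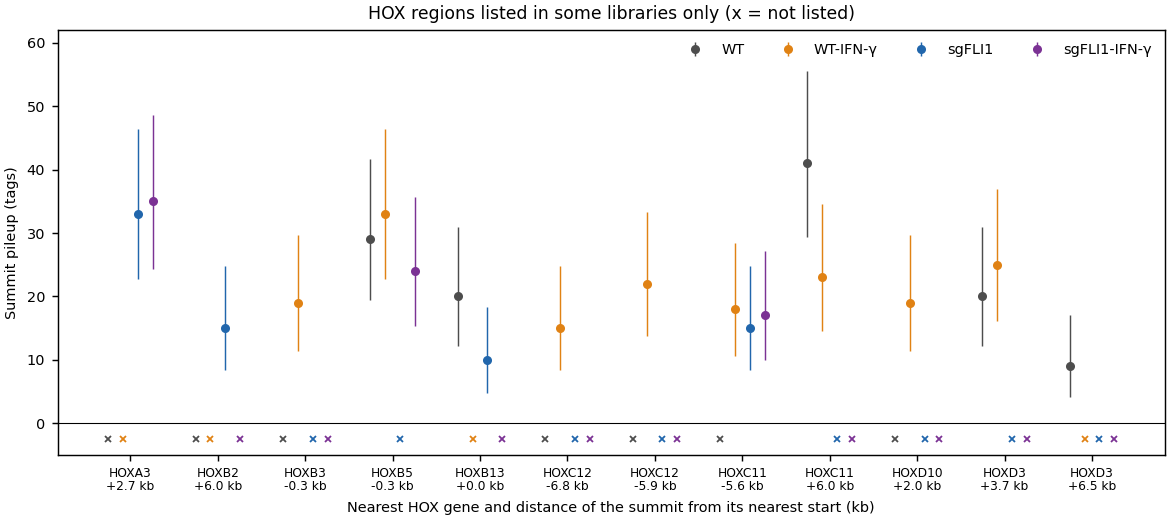
Summit pileup in tags, with 95% exact Poisson counting intervals, of the 12 HOX regions missing from at least 1 list, named by the nearest gene and the distance in kb of the summit from its nearest start, with crosses for libraries that do not list them. The region 6.0 kb past HOXC11 is filled in both WT libraries only and the region 2.7 kb into HOXA3 in both knockout libraries only.

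The first comparison asked whether IFN-γ opened or closed HOX chromatin in WT cells. A peak that shared no base with the other list was called gained or lost. In WT-IFN-γ against WT, 10 HOX genes (25.6%) lay within 10 kb of a gained peak, where 26.1% of all protein-coding genes did, and 2 HOX genes (5.13%) near a lost one, where 15.7% did. The gained share was close to the background, and the lost share was below it. The 6 gained peaks stood at the HOXB4 end, HOXB6, HOXD10, HOTAIR and upstream of HOXC12 (2 peaks), and the 2 lost ones at HOXB13 and HOXD3. In sgFLI1-IFN-γ against sgFLI1, 6 HOX genes (15.4%) lay near a gained peak, where 17.2% of all genes did, and 4 (10.3%) near a lost one, where 22.3% did. Here HOXB5 and HOXD8 gained a peak of 24 and 20 tags, and HOXB13, HOXC11 and the summit between HOXB1 and HOXB2 lost one of 10, 24 and 15 tags.

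The second comparison asked what differed between the genotypes. In sgFLI1 against WT, 9 HOX genes (23.1%) lay near a gained peak, where 23.8% of all genes did, and 8 (20.5%) near a lost one, where 20.4% did. In sgFLI1-IFN-γ against WT-IFN-γ, 4 (10.3%) lay near a gained peak, where 17.9% of all genes did, and 9 (23.1%) near a lost one, where 28.9% did. The HOX shares were close to those of all genes in sgFLI1 against WT and below them under IFN-γ. These readings depend on the setting: with −log10 q of at least 5 the HOX shares in sgFLI1 against WT were 20.5% near gained and 20.5% near lost peaks, where 11.9% and 10.9% of all genes were, and under IFN-γ the gained share was 10.3%, where 7.68% were. The HOXA3 intron was gained and the HOXD3 intron and the region beyond HOXC11 were lost in both. Each library enters 2 of the 4 comparisons, so they are not independent, and neighbouring HOX genes share peaks: the 5 peaks lost in sgFLI1 account for all 8 genes.

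Where a region was listed in both libraries, its scaled pileups were compared as a log2 ratio and called different at 1.5-fold or more with an exact counting interval that excluded no change. Few HOX regions were. In WT-IFN-γ against WT, 0 of 40 HOX regions were called higher, where 3.44% of all shared regions were, and 2 lower, where 2.43% were. In sgFLI1-IFN-γ against sgFLI1, 0 of 39 were higher (all regions 0.29%) and 0 lower (all regions 2%). In sgFLI1 against WT, 0 of 38 were higher (all regions 7.77%) and 1 lower (all regions 4.21%). In sgFLI1-IFN-γ against WT-IFN-γ, 1 of 39 was higher (all regions 5.15%) and 1 lower (all regions 6.61%). These counts cover counting error alone.

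The called regions were 5. The region 1735 bp upstream of HOXC12 had 63, 44, 45 and 48 tags, a log2 ratio of −0.65 in WT-IFN-γ against WT (−1.24 to −0.08). The region beyond HOXC11, printed above, had a log2 ratio of −0.97 in the same comparison (−1.77 to −0.20). Both were highest in WT. HOXB7, with the tags given above, was lower in sgFLI1 against WT by a log2 ratio of −0.61 (−1.18 to −0.05). The region at an upstream start of HOXA6, in an exon of HOXA-AS3, was lower in sgFLI1-IFN-γ against WT-IFN-γ by −0.65 (−1.15 to −0.16). The region 3097 bp upstream of a HOXB7 start, in an exon of the noncoding gene LINC03057, had 39, 30, 42 and 44 tags, and was higher in the same comparison by 0.92 (0.22 to 1.64). In the region at the outlying HOXC4 start, by contrast, the 4 scaled pileups ran only from 14.7 to 14.9.

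By cluster, most HOXC regions had a ratio below 0 in both comparisons against WT. In WT-IFN-γ against WT, 9 of 10 HOXC regions had a log2 ratio below 0, with a median of −0.36. In sgFLI1 against WT, 9 of 9 were below 0, with a median of −0.25. Shared regions outside the cluster but within 5 Mb of it had medians of −0.11 and 0.04 in these comparisons. Both use the WT library as reference, so they are not separate observations, and with 1 library per group no replicate error is at hand for them. In the comparisons without it, the HOXC median was −0.04 (sgFLI1-IFN-γ against sgFLI1, 6 of 10 below 0) and 0.06 (sgFLI1-IFN-γ against WT-IFN-γ, 4 of 10 below 0). The length to which tags were extended, which enters the scaled pileup, was 274, 249, 259 and 255 bp. Its part in the HOXC ratios was not tested.

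The other clusters moved less or in both directions. Over all HOX regions the median log2 ratio was −0.12 in WT-IFN-γ against WT (all shared regions −0.07), −0.08 in sgFLI1-IFN-γ against sgFLI1 (all −0.14), −0.13 in sgFLI1 against WT (all 0.05) and 0.09 in sgFLI1-IFN-γ against WT-IFN-γ (all −0.02). Relative to all shared regions, the HOX median was thus 0.06 higher in sgFLI1-IFN-γ against sgFLI1, although its own sign was negative. HOXA medians lay between −0.13 (sgFLI1 against WT) and 0.01 (sgFLI1-IFN-γ against WT-IFN-γ). HOXB medians lay between −0.19 (WT-IFN-γ against WT) and 0.16 (sgFLI1-IFN-γ against WT-IFN-γ), and regions within 5 Mb of HOXB but outside it had a median of 0.12 in the latter. In the HOXB6 region the ratio rests on neighbouring summits, since the WT peak there shared no base with those of WT-IFN-γ and sgFLI1. HOXD medians lay between −0.20 (sgFLI1-IFN-γ against sgFLI1) and 0.20 (sgFLI1 against WT).

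**Figure D4:**
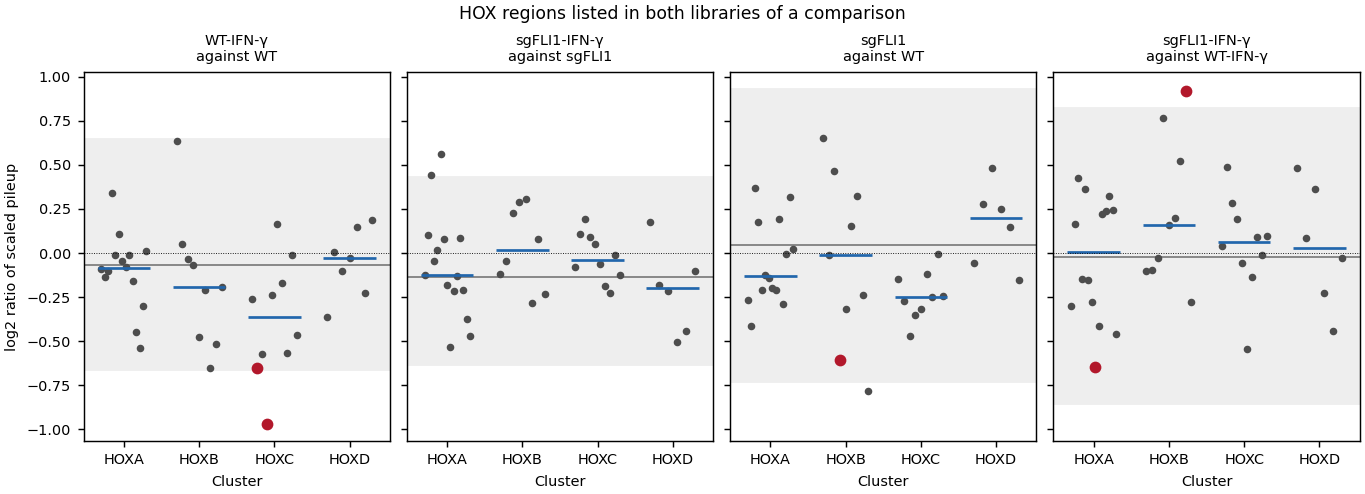
Log2 ratio of scaled pileup for each HOX region listed in both libraries, by cluster and comparison, with blue lines for cluster medians, red points for called regions, a grey line for the median of all shared regions and grey shading from their 5th to 95th percentile. Most points lie within the shading, and 9 of 10 and 9 of 9 HOXC points lie below 0 in the comparisons against WT.

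The open HOX regions were richer in CpG than open regions in general, and so were those beyond 1 kb of protein-coding starts. In the 201 bases around the summit, the median GC content was 58.7% in HOX regions and 49.8% in all regions, and the median CpG number 14 and 3. The 37 HOX regions listed in all 4 libraries had a median of 15 CpG, and the 12 missing from some list 3.5. Because 57.1% of HOX regions and 18.1% of all regions lay within 1 kb of a protein-coding TSS, they were also compared by distance. Starts of noncoding genes were not counted, and a region beyond 1 kb can lie at one. Beyond 1 kb from any protein-coding TSS, HOX regions listed in all 4 libraries had a median of 15 CpG (n = 12), where all such regions had 3 (n = 28004). Within 1 kb both had 15. The HOXD3 intron region missing from the knockout lists held 22 CpG and the HOXA3 intron region listed only there 4, so CpG-rich and CpG-poor regions were both among them.

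Short motifs were searched on both strands of the same windows as exact letters. The AP-1 and HOX-PBX patterns can share letters, and no HOX region held both. AP-1 (TGANTCA) was found in 3 of 49 HOX regions (6.12%), where 22.6% of all regions held it, and the ETS motif CCGGAAGT, of the family to which FLI1 belongs, in 0, where 0.988% did. A paired HOX-PBX motif (TGATNNAT) was found in 4 (8.16%; all regions 8.38%) and the homeodomain core TAATTA in 1 (2.04%; all regions 3.53%). The CTCF motif was found in 2 (4.08%; all regions 6.53%), both in HOXA and both on the minus strand, in the region between HOXA7 and HOXA9 and at a HOXA10 start. These shares too depend on the distance from protein-coding starts. Within 1 kb of a TSS, AP-1 stood in 7.14% of 28 HOX regions and 8.71% of all such regions, and beyond it in 4.76% of 21 and 25.6%. All 4 HOX-PBX matches lay within 1 kb, which is 14.3% of those HOX regions against 3.01% of all, and beyond it there was none, against 9.56%. The ETS motif was in 4.22% of all regions within 1 kb and 0.276% beyond it. With so few HOX regions these shares rest on 4 matches or fewer. The first CTCF match is shown with its match in capitals, since it stood in an intergenic region listed in all 4 libraries with 55, 60, 41 and 35 tags.
Between HOXA7 and HOXA9, chr7:27161118-27161169: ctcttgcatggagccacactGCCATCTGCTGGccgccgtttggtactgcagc
A direct repeat of the kind bound by retinoic acid receptors, which switch on 3′ HOX genes, was found in 1 HOX region (2.04%) and in 0.0751% of all regions. It was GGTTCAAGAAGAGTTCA on the minus strand of an inner HOXA3 start (chr7:27113524-27113540), in a region with 54, 54, 35 and 47 tags. A match of letters is a description of the sequence and shows no binding, and its absence says only that these letters are not in the window.

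Promoters of genes that act with or on HOX proteins were read against all protein-coding genes, of which 62.6% had a promoter peak in all 4 lists. The Polycomb and Trithorax lists lay above that share, the cofactors near it and the upstream factors below it. The Polycomb genes had a promoter peak in all 4 lists for 13 of 13, among them EZH2 (102, 120, 108 and 109 tags), the H3K27 methyltransferase, and SUZ12 (71, 45, 62 and 57 tags). Of 10 Trithorax and MLL genes 9 were listed throughout, including KMT2A, which encodes MLL1 (126, 123, 107 and 110 tags). The exception was KDM6B, missing from WT-IFN-γ by the 1 kb rule. Of 9 cofactor genes of the PBX, MEIS and PREP families, which bind DNA with HOX proteins, 6 were listed throughout, PKNOX2 nowhere, and PBX3, by the same rule, only in the untreated libraries (213 and 155 tags). MEIS3 was listed only with IFN-γ, with 18 tags in WT-IFN-γ and 13 in sgFLI1-IFN-γ. Of 7 upstream factors, RARA, RARG and CTCF were listed throughout and CDX1, CDX4 and RARB nowhere, and CDX2, the caudal factor that activates central HOX genes, was listed in sgFLI1-IFN-γ alone with 9 tags.

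Separate secondary peaks at the promoters of some of these genes were gained or lost at RARA, PCGF2, BMI1, KDM6A and CTCF beside a main peak that stayed listed. At PCGF2, a Polycomb subunit, a peak of 43 tags in WT overlapped none in WT-IFN-γ, and its strongest had 114, 111, 77 and 100 tags. At RARA, a retinoic acid receptor, peaks of 45 tags in WT and of 62 in sgFLI1 were not shared with WT-IFN-γ and WT in turn. Those at BMI1, KDM6A and CTCF had 10 to 24 tags.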

How the data were processed

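ATAC-seq libraries of HK1 cells were analysed from 4 deposited peak lists, 1 per group. The authors trimmed reads (Trimmomatic 0.3), aligned them to GRCh38 (Bowtie2 2.3.4.1), removed poorly mapped and duplicate reads, and called peaks (MACS2 2.1.2). The study's methods also name an IDR (irreproducible discovery rate) filter that kept reproducible peaks. Whether a deposited list is 1 replicate or pooled, and stands before or after that filter, and whether the transposase offset was corrected, is not given in the sources used here. Each deposited peak has a score, a fold ratio over local background, a −log10 p, a −log10 q and a summit offset.

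Summit pileups were the whole numbers that gave back both the fold and the −log10 p within 0.001, which held for all peaks but 1, not near a HOX gene. Lowest background divided by tag extension (249 to 274 bp) gave tag density. HOX peaks had a summit within 10 kb of any GENCODE TSS, and peaks sharing at least 1 bp were joined into regions. Poisson and conditional binomial intervals are exact at 95%. Values were given in full for the strongest region of HOXB, HOXC and HOXD in WT, promoters listed in some libraries only, up to 8 regions listed in some libraries only by −log10 q (at least 5), and every shared region called by ratio. The members and lists were chosen with earlier results of these data known. HOXA5 and HOXA6 were chosen after their values were seen. HOXB13 and the weaker regions missing from some lists, and secondary promoter peaks of other genes, were named to account for all members. Some genes and sequences are not reported here. Steps were tested on simulated data. Tools were Python 3.11.15 with scipy 1.17.1, numpy 2.4.6, matplotlib 3.10.9 and pandas 2.3.3.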

Additional observations from a re-analysis of the deposited data

Results flagged for a closer look

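In some results the 2 genotypes moved in opposite directions with IFN-γ, and with 1 library per group none of these differences was tested. The number of peaks near HOX genes was 4 higher with IFN-γ in WT cells and differed by −1 in knockout cells. The whole lists moved the same way, from 59629 to 67470 peaks in WT cells and from 63203 to 59923 in knockout cells. By cluster the number near HOX genes differed by 1 and −2 in HOXB, 3 and −1 in HOXC, and −1 and 1 in HOXD. The median log2 ratio of HOXB regions was −0.19 in WT cells and 0.0173 in knockout cells. The region 1735 bp upstream of HOXC12 had log2 ratios of −0.65 and 0.11, and its tags were highest in WT (63) and 44 to 48 in the other 3 libraries.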

How the results depend on the processing

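Of 80 recomputed values for 20 results, 60 stayed within 1.5 times the count, or within the counting interval for ratios, and 20 moved. The numbers of HOX peaks and of HOX promoters, 8 results in all, stayed within that range under stricter q, canonical starts, equal depth (pileup and background scaled down to the lowest tag density, then 1 common −log10 p limit of 3.16) and, for peaks, a 3 kb window. Counts of genes near gained or lost peaks are given in the order WT-IFN-γ against WT, sgFLI1-IFN-γ against sgFLI1, sgFLI1 against WT, and sgFLI1-IFN-γ against WT-IFN-γ. A 3 kb window gave 4, 2, 3 and 2 genes near gained and 1, 2, 2 and 3 near lost peaks. With −log10 q of at least 5, the gained counts that moved were 4 (from 10) and 3 (from 6) for the IFN-γ comparisons, and the lost ones 1 (from 2), 2 (from 4) and 5 (from 9, sgFLI1-IFN-γ against WT-IFN-γ). Over all protein-coding genes the shares fell too: with the 3 kb window 7.71% to 12% were near gained and 7.04% to 13.7% near lost peaks, where HOX shares were 5.13% to 10.3% and 2.56% to 7.69% and lay below those of all genes in each comparison. With the stricter q, the HOX share was 20.5% near gained and 20.5% near lost peaks in sgFLI1 against WT, where all genes had 11.9% and 10.9%, so the closeness to all genes there did not hold. The gained share was then also above that of all genes in sgFLI1-IFN-γ against sgFLI1 (7.69% and 6.62%) and sgFLI1-IFN-γ against WT-IFN-γ (10.3% and 7.68%), and the other shares were below. With canonical starts, 5 of the 8 HOX shares lay above those of all genes, the widest being the gained share in WT-IFN-γ against WT (20.5% and 14.7%). The lost count in WT-IFN-γ against WT was 1 with canonical starts and 1 at equal depth, and canonical starts gave 2 gained (from 4) in sgFLI1-IFN-γ against WT-IFN-γ. Requiring overlap of at least 0.5 of the shorter peak raised the lost count in sgFLI1-IFN-γ against sgFLI1 from 4 to 8. The median ratio moved to −0.0114 in WT-IFN-γ against WT when centred on regions within 5 Mb of the cluster, and to 0.0597 and 0.0514 in sgFLI1-IFN-γ against sgFLI1 when centred on all or on nearby regions, which turned its sign. The cause of these moves was not tested beyond the fewer peaks or genes each setting admits. No paired analysis was possible because each group has 1 library and replicate numbers only name it.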
